A study of Homo sapiens with 4 samples.

Results

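Amino acid carriers are the membrane proteins that bring amino acids into cells, export them, and move them across the lysosomal and mitochondrial membranes. The 35 genes described here were listed by name and not filtered by their values, although earlier results of these data were known when the list was chosen. They are listed members of the SLC1, SLC3, SLC6, SLC7, SLC16, SLC25, SLC36, SLC38 and SLC43 families together with CTNS, and all 35 were found among the 62655 genes of the count table. The cells were Hep G2, an established human liver cancer line. They were plated at 150000 per ml and loaded with lipid in oleic acid-rich medium 24 h later. Another 24 h later they were transfected with a mimic of LysTTT-5'tRF, the 5'-terminal piece of a lysine tRNA whose anticodon is TTT, or with a negative control oligonucleotide. RNA was taken 24 h after transfection. There were 2 mimic libraries and 2 control libraries, and all 4 came from lipid-loaded, transfected cells. No library of untreated or lipid-free cells was used here, so the effects of lipid loading and of transfection itself cannot be read from this comparison. The comparison asks which carrier transcripts differed when the fragment was added.

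Many of these carriers work together. SLC3A1 and SLC3A2 are heavy chains that do not transport by themselves but carry light chains of the SLC7 family to the cell surface, where most of them exchange one amino acid for another. Sodium-coupled carriers such as SLC38A2 accumulate glutamine and other neutral amino acids, which the exchangers then trade for leucine and other essential ones. In liver these systems feed urea and glutathione synthesis, and several of the genes are activated by ATF4, the transcription factor that responds to amino acid shortage.

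Reads counted to genes were 15430539 and 18961222 in the mimic libraries and 16793484 and 15970530 in the control libraries. Levels are given as CPM, counts per 1000000 reads of the library size after TMM scaling, and comparisons between genes as CPM per kb of merged annotated exon. All 8 hepatocyte markers listed for a check of the cell type were detected, and their summed level was 46105 and 45640 CPM in the mimic libraries, against 44815 and 43078 CPM in the control libraries, without overlap. ALB rose (log2 fold change 0.23, adjusted p = 0.0109, edgeR with Benjamini-Hochberg adjustment), while TTR, AFP and FGB, at 0.26, 0.13 and 0.11, were without overlap but did not pass, and APOA1, APOB, SERPINA1 and HNF4A overlapped between groups. The part of this shift in the carrier values was not tested. The 11 markers of fibroblasts, endothelium and leukocytes together held 13.9 and 14.6 CPM in the mimic libraries and 13.1 and 13.4 CPM in the control libraries. DCN, LUM, PTPRC and CD3E were at 0 in every library, and COL3A1, CD68 and CD14 had at most 7 reads. The endothelial PECAM1 (8.05 CPM with the mimic, 8.16 in the control) and CDH5 and the fibroblast COL1A1 were detected and overlapped between groups. Endothelial VWF had 14 and 22 reads in the mimic libraries and 7 and 7 in the control libraries. Its log2 fold change was 1.30 without overlap, and it did not pass (adjusted p = 0.484, edgeR with Benjamini-Hochberg adjustment). The labels do not say whether the libraries came from separate cultures, so the spread that p-values rest on may be technical. As in any bulk RNA measurement, fewer cells expressing a gene and less RNA per cell cannot be told apart.

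Promoter sequence was searched for the site that ATF4 binds with C/EBP proteins, since ATF4 is a known regulator of several of these genes. RefSeq windows from 250 bases before to 50 bases after a RefSeq start of a gene (GRCh38.p14) were matched by symbol for 29 of the 35 members. SLC1A2, SLC3A1, SLC7A2, SLC7A11, SLC38A3 and SLC43A3 had no matched window and were not searched. The 8-letter motif TGATGNAA, on either strand, was present in a window of 6 of these 29 genes (20.7%), against 4.46% of all 27305 genes with a window. Many genes have several windows, and by window the shares were 11.1% of 54 and 3.62% of 35116. Some matches lie at a start away from where GENCODE release 29 lets the gene begin. There SLC3A2 begins at 62856102 and SLC1A3 at 36606355. On the minus strand SLC1A5 begins at 46788594 and SLC38A1 at 46270017. Which starts these cells use was not tested. A match is a description of letters, not a bound site. The 6 matches are shown because they can be set against the expression values below. They run 5' to 3' on the gene's strand, with up to 11 bases on each side and the motif or its reverse complement in capitals:
SLC1A3 (chr5:36596357-36596386, plus strand): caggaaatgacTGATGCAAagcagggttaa
SLC1A4 (chr2:64989381-64989410, plus strand): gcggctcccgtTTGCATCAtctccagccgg
SLC1A5 (chr19:46784893-46784922, minus strand): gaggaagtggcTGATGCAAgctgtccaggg
SLC3A2 (chr11:62881725-62881748, plus strand): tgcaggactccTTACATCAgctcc
SLC7A1 (chr13:29595663-29595692, minus strand): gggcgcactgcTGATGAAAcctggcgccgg
SLC38A1 (chr12:46266502-46266531, minus strand): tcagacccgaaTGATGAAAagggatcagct

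In lipid-loaded Hep G2 cells the carriers spanned more than 3 orders of magnitude in level, and 1 gene dominated. SLC38A2, which encodes the sodium-coupled neutral amino acid carrier SNAT2, stood at 608 CPM per kb under the mimic and 581 in the control. It held 53.0% to 54.8% of the members' summed level per kb in each library and ranked 37 of 14086 tested genes with an annotated exon length. Next came SLC7A5, the large neutral amino acid exchanger LAT1, at 117 CPM per kb with the mimic and 125 CPM per kb in the control. SLC1A5, the glutamine carrier ASCT2, followed at 76.7 CPM per kb with the mimic and 75.0 CPM per kb in the control. These 3 did not overlap each other in any library. Below them SLC38A1 and SLC7A2 overlapped across the 4 libraries, and so did SLC7A1 and SLC1A4, and SLC1A4 and the mitochondrial carrier SLC25A13. At the low end of the tested carriers were SLC7A9, at 0.861 to 1.63 CPM per kb over the libraries, and SLC7A7, at 0.305 to 0.460 CPM per kb. Merged exons of all annotated isoforms overstate the length of genes with many isoforms, such as SLC1A2 with 22835 bases, so their levels per kb are low estimates.

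**Figure D1:**
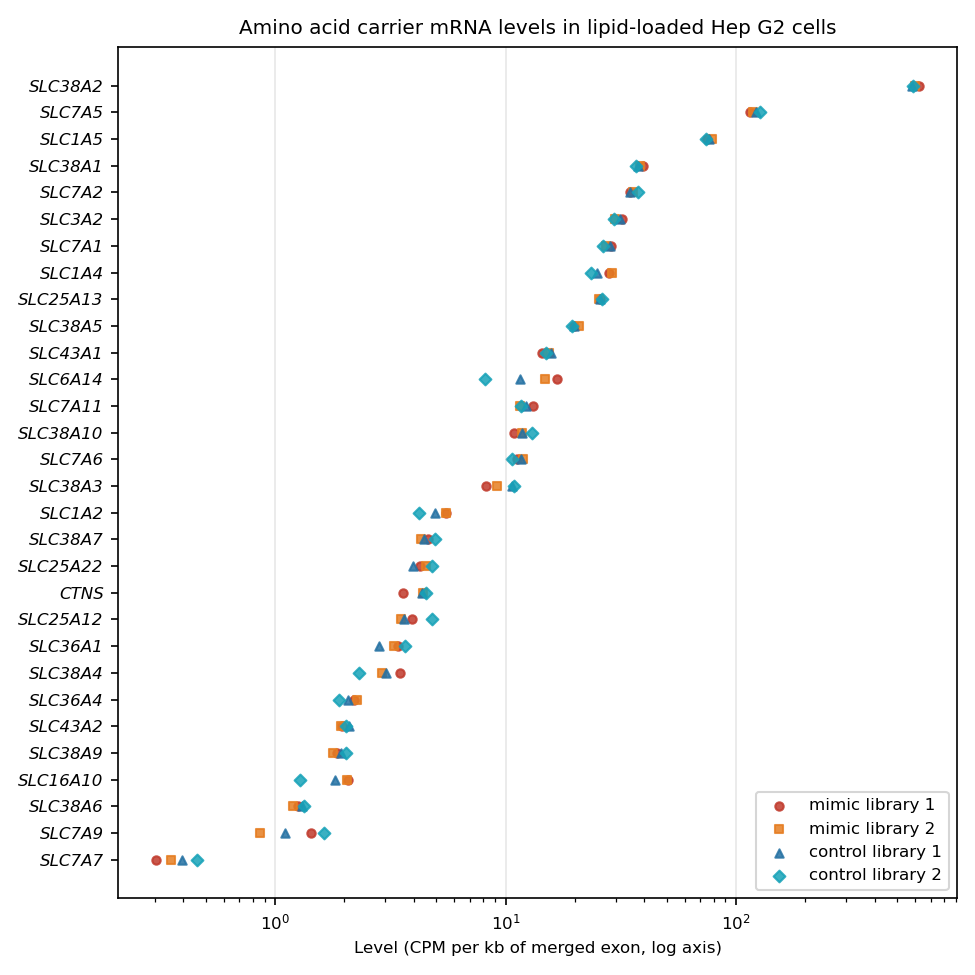
Level of each of the 30 tested carriers in every library, in CPM per kb of merged exon on a log axis, with 1 symbol per library and genes ordered by their mean. SLC38A2 stands apart at the top at 577 to 621 CPM per kb, and the 4 libraries nearly coincide for most genes, with SLC6A14 among the exceptions.

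Of the 35 carriers, 30 had enough reads to be tested and 5 did not. Counts of the untested genes were, in mimic libraries 1 and 2 and then control libraries 1 and 2, 0, 5, 3 and 3 for the glutamate carrier SLC1A1. The astrocyte glutamate carrier SLC1A3 had 1 read, in mimic library 1. The exchanger light chain SLC7A8 also had 1 read, in mimic library 2. The heavy chain SLC3A1 had 0 and 0 reads with the mimic and 0 and 4 in the control, and SLC43A3 had 6 and 9 with the mimic and 4 and 2 in the control. A gene without a read could still be present at up to 0.160 to 0.196 CPM, the level that 3 reads stand for in these libraries, by counting error alone. PCR copies were not told apart from separate molecules.

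Across the 30 tested carriers the mimic and the control were close, and 1 carrier, SLC6A14, rose. The test was edgeR's quasi-likelihood F test, with Benjamini-Hochberg adjustment over all 14464 genes tested. It called 1 of 30 higher and 0 lower (0 lower also by limma voom), where it called 0.346% of all tested genes in either direction, 0.277% higher and 0.0691% lower. DESeq2 also called 0 lower, but it gave no adjusted p to carriers of lower counts such as SLC38A3, so it could not call those. At an unadjusted p under 0.05 there were 6 carriers, 20% of those tested, against 9.43% of all tested genes. Of the 6 carriers 4 were higher and 2 lower with the mimic, against 5.06% and 4.37% of all tested genes. Library values of the groups did not overlap for 14 carriers, 46.7% of those tested, against 39.1% of all tested genes. In 7 of these the mimic was higher and in 7 lower, against 19.8% and 19.3% of all tested genes. A difference of at least 1.2 times in either direction was seen for 6 carriers and for 19.5% of all tested genes. The median log2 fold change (mimic over control) was 0.012 for the carriers and 0.0011 for all tested genes, and the median of its size was 0.09 for the carriers and 0.10 for all. Of the 30 carriers 16 lay above 0 and 14 below. For 13 of the 30 the 95% interval lay within a 1.2-fold change in either direction, as for 32.7% of all tested genes, so for these a larger change lay outside the interval.

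**Figure D2:**
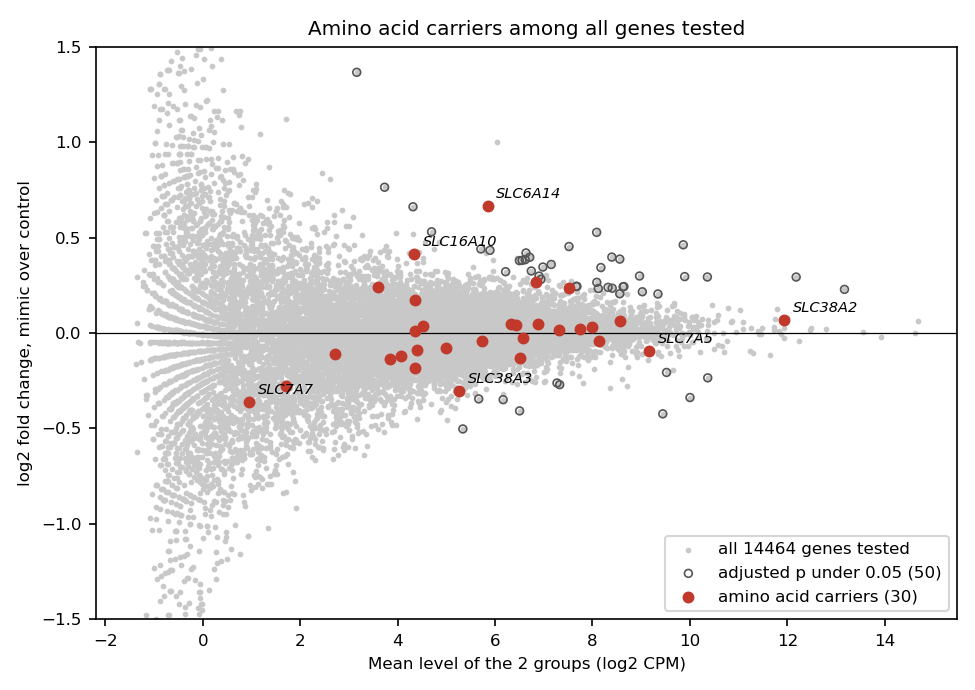
Log2 fold change, mimic over control, against the mean level of both groups in log2 CPM for all 14464 tested genes (grey), the 50 called genes (open circles) and the 30 tested carriers (red). SLC6A14 is the 1 carrier among the called genes, and most abundant carriers lie near 0. The vertical axis ends at 1.5 on either side, which leaves out 48 genes.

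Of the 3 cationic carriers, SLC6A14 rose and SLC7A1 and SLC7A2 did not pass the test. SLC6A14 encodes the sodium- and chloride-coupled carrier ATB0,+, which takes up neutral and cationic amino acids, lysine among them. It had 75.4 and 66.8 CPM in mimic libraries 1 and 2, against 52.4 and 36.9 CPM in control libraries 1 and 2. Both mimic libraries lay above both control libraries, and control library 2 was the lowest. Mimic libraries averaged 71.1 ± 6.05 CPM and control libraries 44.6 ± 10.96 CPM (SD, n = 2 each). The log2 fold change was 0.66 (SE 0.10, 95% interval 0.45 to 0.88, adjusted p = 0.00279, edgeR with Benjamini-Hochberg adjustment). It had the 8th smallest p of all genes tested. The control libraries differed from each other by 1.42 times. Without control library 2 the log2 fold change was 0.44, and without control library 1 it was 0.94. These fits hold 1 control library, so their spread came from the mimic libraries alone and left out the gap between the controls. With no filter on low counts the call was lost (log2 fold change 0.66, adjusted p = 0.754, edgeR). DESeq2 gave SLC6A14 an unadjusted p of 0.01 and no adjusted p. By DESeq2 the carrier SLC1A2 had a smaller unadjusted p, 0.00274, and did not pass (adjusted p = 0.12).

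SLC6A14 (ENSG00000268104) lies on the plus strand of chromosome X from 116436622 to 116461458 of GRCh38, and its exons share no sequence with another annotated gene. The TGATGNAA motif has no match in its RefSeq promoter window. The 100 bases before its RefSeq start are shown because it is the called carrier, with the letters ATAAA in capitals, which were chosen after the sequence was seen and begin 27 bases before the start:
SLC6A14 (chrX:116436506-116436605, plus strand): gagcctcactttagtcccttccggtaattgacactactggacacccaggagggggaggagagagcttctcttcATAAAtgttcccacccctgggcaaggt
Between 45 and 15 bases before the start these letters occur on the gene's strand in 5.06% of all RefSeq windows and on either strand in 7.31%.

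The other 2 cationic carriers are more abundant than SLC6A14 and were nearly level between groups. SLC7A1, the widely expressed cationic carrier CAT1, had 220.0 and 209.7 CPM in the mimic libraries and 219.0 and 204.0 CPM in the control libraries, with a log2 fold change of 0.022 (95% interval -0.09 to 0.13). SLC7A2, the cationic carrier CAT2 that is characteristic of liver, had 273 and 281 CPM in the mimic libraries and 274 and 298 CPM in the control libraries, with a log2 fold change of -0.044 (95% interval -0.15 to 0.06). For both genes the groups overlapped and a change of 1.2 times lay outside the interval. On the level per kb, SLC6A14 stood at 15.7 CPM per kb with the mimic and 9.87 CPM per kb in the control, against 27.9 and 27.5 CPM per kb for SLC7A1 and 35.1 and 36.2 CPM per kb for SLC7A2 in the same groups.

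**Figure D3:**
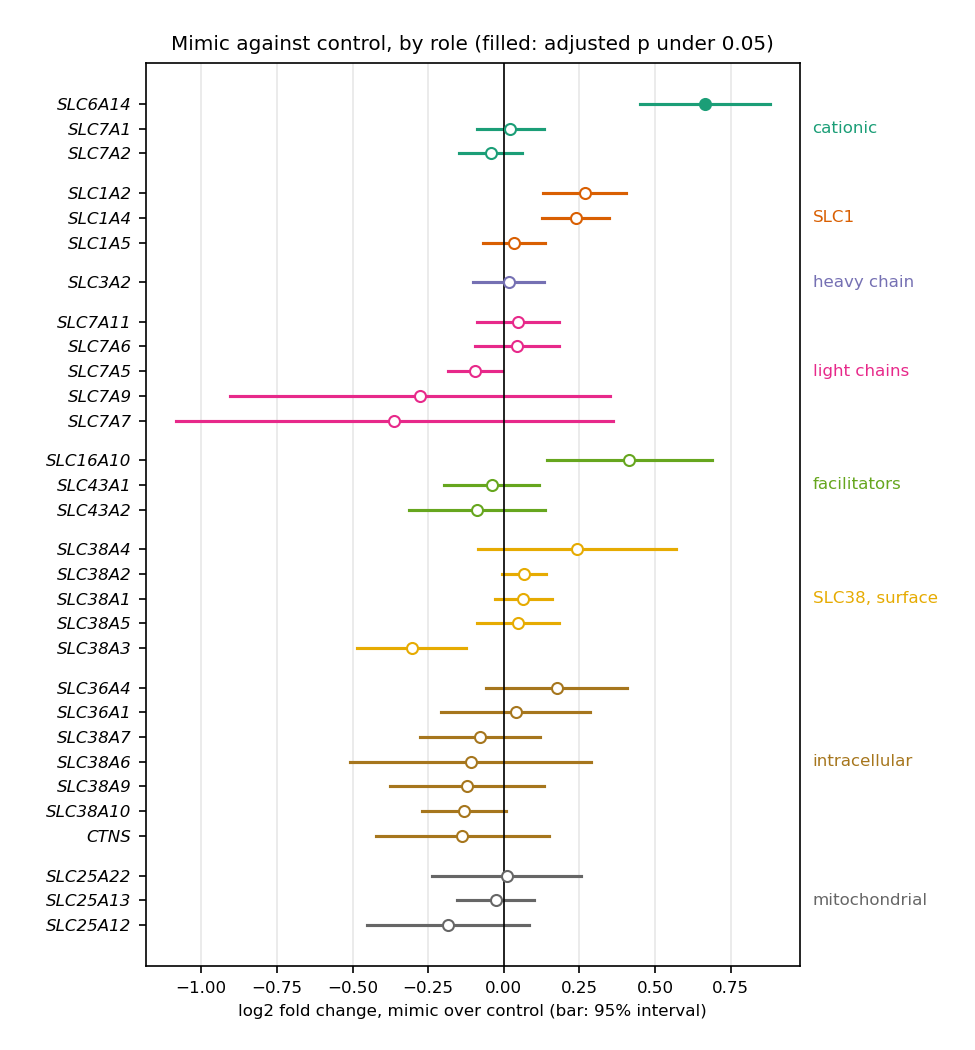
Log2 fold change, mimic over control, with its 95% interval for the 30 tested carriers, grouped by role and ordered within each role. Filled circles mark an adjusted p under 0.05. SLC6A14 at 0.66 is the 1 filled circle, and the intervals of 5 open circles (SLC1A2, SLC1A4, SLC16A10, SLC38A3 and SLC7A5) do not reach 0.

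Of the 3 tested SLC1 carriers none passed the test over all genes, and SLC1A4 and SLC1A2 had the smallest p of the carriers after SLC6A14. SLC1A4 encodes ASCT1, an exchanger of alanine, serine and cysteine. It had 195 and 201 CPM in the mimic libraries, against 173 and 163 CPM in the control libraries. The groups did not overlap, and the log2 fold change was 0.24 (SE 0.05, 95% interval 0.13 to 0.35, unadjusted p = 0.000188, adjusted p = 0.0523, edgeR with Benjamini-Hochberg adjustment). This lies just outside the threshold, and 4 of 13 alternative settings put it inside. These were DESeq2 (adjusted p = 0.042), limma voom (adjusted p = 0.0479), the column number as a replicate block, and the fit without control library 1. The block called many more genes, 306 against 50 with the main fit. With 1 library left out the log2 fold change was between 0.20 without control library 2 and 0.28 without control library 1.

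SLC1A2 encodes the glutamate carrier GLT-1 (EAAT2), best known from astrocytes and also present in liver. It had 125.7 and 126.1 CPM in the mimic libraries, against 112.5 and 96.6 CPM in the control libraries. The mimic libraries were nearly identical and both lay above the control, whose libraries differed from each other by 1.17 times. Its log2 fold change was 0.27 (SE 0.07, 95% interval 0.13 to 0.40, adjusted p = 0.0891, edgeR with Benjamini-Hochberg adjustment), but 0.16 without control library 2 and 0.38 without control library 1. SLC1A5, the relative of SLC1A4 that carries glutamine, had 250 and 261 CPM in the mimic libraries and 253 and 246 CPM in the control libraries. These values overlapped, with a log2 fold change of 0.033 (95% interval -0.07 to 0.14). Part of the SLC1A5 exon sequence lies opposite antisense annotation, and it is not stated whether reads were counted by strand, so its counts are less certain. The ratio of SLC1A4 to SLC1A5 in CPM per kb was 0.374 and 0.370 in the mimic libraries, against 0.328 and 0.318 in the control libraries, without overlap. SLC1A4 (ENSG00000115902) lies on chromosome 2 from 64988477 to 65023865 and SLC1A2 (ENSG00000110436) on chromosome 11 from 35251205 to 35420063 of GRCh38.

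**Figure D4:**
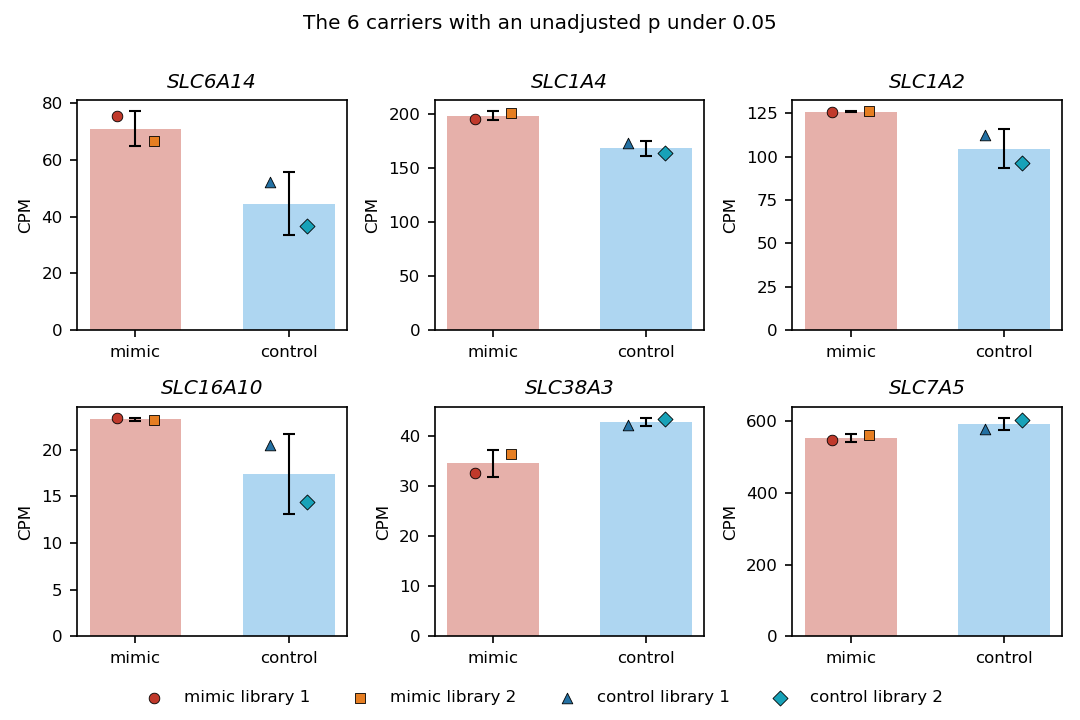
CPM in each library (points), group mean (bar) and SD (error bar, n = 2 each) for the 6 carriers with an unadjusted p under 0.05, mimic left of control. In each panel the groups do not overlap, and control library 2 is the control library farther from the mimic libraries.

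The heavy chain SLC3A2 and its light chains showed no member that passed the test. SLC3A2 encodes 4F2hc (CD98). It had 166 and 155 CPM in the mimic libraries and 163 and 154 CPM in the control libraries, which overlapped, with a log2 fold change of 0.016 (95% interval -0.10 to 0.13). SLC3A1, the heavy chain rBAT, was almost without reads, as given above, although its light chain partner SLC7A9 had 57 and 42 reads in the mimic libraries and 48 and 68 in the control libraries. Annotated overlaps with an antisense gene (PREPL, 29.4%) and with a gene on the same strand (26.9%) make the few SLC3A1 reads uncertain.

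SLC7A5 encodes LAT1, the SLC3A2 partner that exchanges leucine and other large neutral amino acids. It had 547 and 562 CPM in the mimic libraries, against 580 and 606 CPM in the control libraries. The groups did not overlap, the difference was small (log2 fold change -0.096, SE 0.04, 95% interval -0.19 to -0.0064), and it did not pass (unadjusted p = 0.0368, adjusted p = 0.497, edgeR with Benjamini-Hochberg adjustment). Without control library 2 it was -0.064. The light chains SLC7A11 and SLC7A6 had log2 fold changes of 0.046 and 0.044. SLC7A11 is xCT, which imports cystine for glutathione synthesis, and had 127.5 and 111.4 CPM in the mimic libraries and 118.5 and 112.3 CPM in the control libraries. SLC7A6 is y+LAT2, and 55.6% of its exon sequence lies opposite antisense genes, SLC7A6OS among them. SLC7A7 (y+LAT1) at -0.36 and SLC7A9 at -0.28 had wide intervals, from -1.08 to 0.36 and from -0.91 to 0.35, at 24 to 68 reads per library.

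Levels in CPM per kb were summed over 5 listed SLC3A2 partners, the light chains SLC7A5, SLC7A6, SLC7A7, SLC7A8 and SLC7A11. SLC7A5 made up 82.4% and 83.3% of this sum in the mimic libraries, against 83.4% and 84.8% in the control libraries. SLC3A2 itself stood at 0.229 and 0.210 of that sum in the mimic libraries and 0.214 and 0.197 in the control libraries. The heavy chain transcript was thus lower than the sum of these 5 light chains in every library, and the ratios overlapped between groups.

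Of the facilitators of aromatic and large neutral amino acids, 3 of 4 were tested and none passed. SLC16A10 encodes TAT1, which lets aromatic amino acids leave cells. It had 23.4 and 23.2 CPM in the mimic libraries, against 20.4 and 14.3 CPM in the control libraries. The mimic libraries nearly coincided and lay above both control libraries, which differed from each other by 1.43 times. Its log2 fold change was 0.41 (SE 0.13, 95% interval 0.14 to 0.69, adjusted p = 0.25, edgeR with Benjamini-Hochberg adjustment), but 0.19 without control library 2 and 0.70 without control library 1. SLC43A1 (LAT3) and SLC43A2 (LAT4), carriers of branched-chain amino acids, phenylalanine and methionine, had log2 fold changes of -0.039 and -0.089. SLC16A10 (ENSG00000112394) lies on chromosome 6 from 111087503 to 111231194 of GRCh38.

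The 5 sodium-coupled SLC38 carriers of the cell surface also held none that passed, and they did not move together. SLC38A3 encodes SNAT3, a glutamine carrier characteristic of hepatocytes. It had 32.6 and 36.4 CPM in the mimic libraries, against 42.2 and 43.3 CPM in the control libraries. Both mimic libraries lay below both control libraries, with a log2 fold change of -0.30 (SE 0.09, 95% interval -0.49 to -0.12, unadjusted p = 0.00196, adjusted p = 0.182, edgeR with Benjamini-Hochberg adjustment). This was the largest difference downward among carriers whose interval did not reach 0. SLC38A3 (ENSG00000188338) lies on chromosome 3 from 50205246 to 50221486 of GRCh38, without exon overlap.

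SLC38A2, the most abundant carrier, had 4101 and 3931 CPM in the mimic libraries, against 3811 and 3858 CPM in the control libraries. The groups did not overlap, yet the log2 fold change was 0.067 (95% interval -0.0054 to 0.14, adjusted p = 0.575, edgeR with Benjamini-Hochberg adjustment), a difference of 1.05 times that did not pass. SLC38A1 (SNAT1) had 394 and 382 CPM in the mimic libraries, against 375 and 367 CPM in the control libraries, with a log2 fold change of 0.065 (95% interval -0.03 to 0.16). The ratio of SLC38A1 to SLC38A2 in CPM per kb was between 0.0627 and 0.0649 in all 4 libraries. SLC38A5 (SNAT5), a glutamine carrier like SLC38A3, had a log2 fold change of 0.046, and SLC38A4 (SNAT4), which is typical of liver, had one of 0.24 with an interval from -0.09 to 0.57. The SLC38A4 value ranged with 1 library left out between 0.063 without control library 2 and 0.45 without control library 1.

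The list grouped 7 carriers as lysosomal or otherwise intracellular, and where their proteins lie in these cells was not tested. All 7 had enough reads for a test, 5 lay below 0, 2 above and none passed. SLC38A10, with the smallest p of the 7, had 83.7 and 90.5 CPM in the mimic libraries, against 90.8 and 100.3 CPM in the control libraries. Mimic library 2 and control library 1 nearly touched, and the log2 fold change was -0.13 (95% interval -0.27 to 0.0087, adjusted p = 0.569, edgeR with Benjamini-Hochberg adjustment). It was -0.056 without control library 2, -0.080 without mimic library 1 and -0.20 without control library 1. SLC38A9, the lysosomal carrier through which mTORC1 senses arginine, was at -0.12, and SLC38A7, which exports glutamine from lysosomes, at -0.078. CTNS, the lysosomal cystine exporter cystinosin, was at -0.14, and SLC38A6 at -0.11. The proton-coupled carriers SLC36A1 and SLC36A4 were at 0.039 and 0.17. Their 95% intervals all included 0.

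Mitochondrial carriers overlapped between groups in all 3 cases. SLC25A12 and SLC25A13 encode aralar and citrin, which exchange aspartate for glutamate. Citrin is the liver form, and its transcript was 6.58 and 7.23 times that of SLC25A12 per kb in the mimic libraries, against 7.13 and 5.48 times in the control libraries. SLC25A12, with the smallest p of the 3, had 20.2 and 18.1 CPM in the mimic libraries and 18.7 and 24.8 CPM in the control libraries, with a log2 fold change of -0.19 (95% interval -0.45 to 0.08). Its sign turned with 1 library, at 0.033 without control library 2 and -0.38 without control library 1. SLC25A13 was at -0.027 (95% interval -0.15 to 0.10). The glutamate carrier SLC25A22 was at 0.0089.

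Set beside the motif search, the 5 tested carriers with a TGATGNAA match had log2 fold changes of 0.24 for SLC1A4, 0.033 for SLC1A5, 0.016 for SLC3A2, 0.022 for SLC7A1 and 0.065 for SLC38A1. SLC1A4 was the 1 gene among these whose interval did not reach 0. SLC1A3, the sixth gene with a match, had too few reads to be tested. The fold changes are of whole genes, whichever start the match lies at. ATF4 itself, among the sensing genes, had a log2 fold change of 0.055 (95% interval -0.05 to 0.16) with 278 and 294 CPM in the mimic libraries and 279 and 271 CPM in the control libraries.

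The carriers that stood apart had the same control library as the more extreme one. Of the 2 control libraries, number 2 was the one farther from the mimic group in 25 of the 30 tested carriers, against 57.4% of all tested genes. For the 6 carriers with an unadjusted p under 0.05 the count was 6, against 71.8% of the 1364 such genes overall. Leaving out control library 1 raised the carriers called higher to 4, namely SLC6A14, SLC1A2, SLC1A4 and SLC16A10, while the number of all genes called rose to 424. Leaving out control library 2, mimic library 1 or mimic library 2 left SLC6A14 as the 1 carrier called, with log2 fold changes of 0.44, 0.58 and 0.75. With 1 library left in a group, the spread came from the other group alone, so calls in these fits do not account for the spread of the reduced group. What makes control library 2 differ was not tested.

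**Figure D5:**
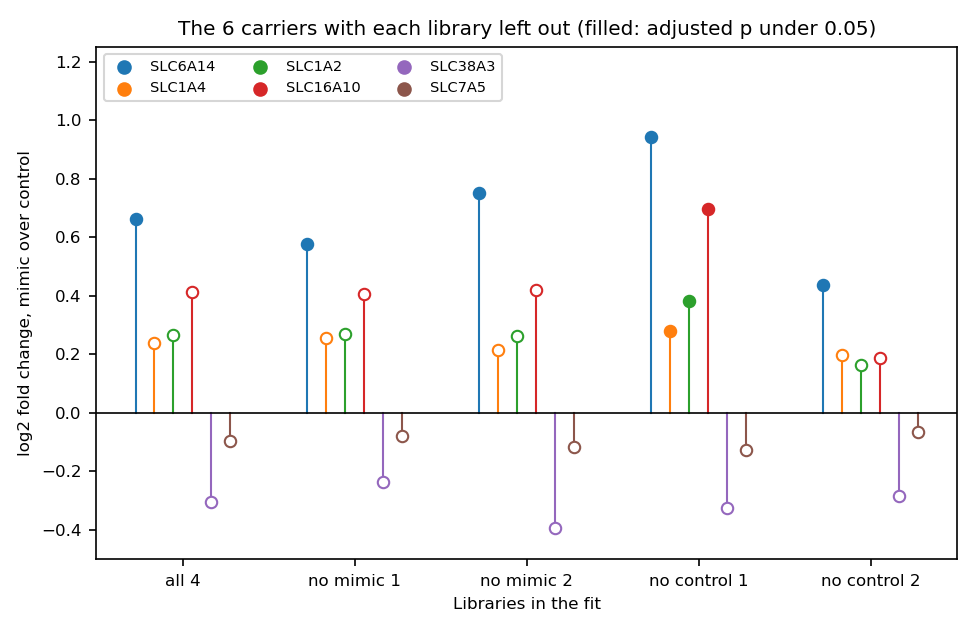
Log2 fold change, mimic over control, of the 6 carriers with an unadjusted p under 0.05, with all 4 libraries and with each library left out in turn. Where 1 library is left in a group, the spread comes from the other group alone. Filled circles mark an adjusted p under 0.05. SLC6A14 is filled in each of the 5 fits, whereas SLC1A4, SLC1A2 and SLC16A10 are filled without control library 1 and in no other of these fits.

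Other genes of amino acid transport and sensing gave no call. Of 34 further amino acid carriers, 14 were tested, with a median log2 fold change of 0.037. None passed by edgeR or limma voom. DESeq2 called none, but it gave no adjusted p to genes of lower counts. SLC43A1, of the 35 members, had 782 to 1024 reads per library and got none. Of the further carriers SLC6A6 alone had more reads than SLC43A1, so the lack of DESeq2 calls says little about this list. By edgeR 2 of the 14 had an unadjusted p under 0.05, 14.3% of those tested, against 9.43% of all tested genes. The smallest p belonged to SLC6A9, the glycine carrier GLYT1, with 17.7 and 18.5 CPM in the mimic libraries, against 15.6 and 11.98 CPM in the control libraries (log2 fold change 0.39, SE 0.14, adjusted p = 0.326, edgeR with Benjamini-Hochberg adjustment). SLC7A10, an exchanger of small neutral amino acids, had 20 and 24 reads in the mimic libraries, against 12 and 8 in the control libraries (log2 fold change 1.08, 95% interval 0.04 to 2.12, adjusted p = 0.513). Without control library 1 the log2 fold change of SLC6A9 was 0.60.

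Of 46 genes through which mTORC1 and the kinase GCN2 sense amino acids, 45 were tested. None passed by edgeR or limma voom. DESeq2 called none, with the same limit for genes of lower counts. By edgeR 4 had an unadjusted p under 0.05, 8.89% of those tested, against 9.43% of all tested genes. Of the 45, 24 lay above 0 and 21 below, and their median log2 fold change was 0.0058. WDR59, of the GATOR2 complex through which amino acids act on mTORC1, had 141 and 128 CPM in the mimic libraries and 129 and 112 CPM in the control libraries, which overlapped (log2 fold change 0.16, SE 0.07, adjusted p = 0.468, edgeR with Benjamini-Hochberg adjustment). Without control library 1 its log2 fold change was 0.26.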

How the data were processed

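The authors deposited unnormalized counts: whole reads per Ensembl gene ID for each library. Libraries were poly(A)-selected with a stranded kit, from RNA with an integrity number above 9.5, per the labels. The submitters' processing notes name FastQC, Bowtie2, STAR, HTSeq and build GRCh38.p14; neither annotation release nor strand setting is stated. The 2 columns starting 25_ were taken as the mimic and the 2 starting NC_ as the control, and library numbers are those of the columns. The 5 HTSeq entries that name no gene held 23.1% to 24.1% of each library and were left out. 0 columns of other samples were present.

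Symbols were matched for 62590 of 62655 gene IDs. edgeR 4.0.16 in R 4.3.3 was run with filterByExpr (minimum count 10, minimum total 15), TMM factors and the quasi-likelihood F test (legacy = FALSE), with Benjamini-Hochberg adjustment over 14464 genes and a threshold of 0.05. Standard errors are the log2 fold change over the square root of F. Exon lengths, positions and overlaps came from GENCODE release 29 (GRCh38), which may differ from the authors' annotation. The fit was tested on simulated data with planted changes, whose spread followed the fitted trend and not each gene's own. It called 58% of planted changes of 1.25 times, 84% of 1.5 times and 98% of 2 times. It made 11 false calls in 14168 genes. Alternatives used DESeq2 1.42.0, limma 3.58.1, other scalings and filters, and each library left out. Same-numbered columns did not deviate together (r = 0.0306 over genes), and the sample titles share no numbers between groups.

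The members, lists and tests were chosen with earlier results of these data known. Genes were described in full if they had an adjusted or unadjusted p under 0.05, were among the 4 most abundant per exon length, were heavy chains, or had the smallest p of a role without such a gene. From the further carriers and the sensing genes, the 2 with the smallest p were named; a gene that this rule names is left out here.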

Additional observations from a re-analysis of the deposited data

How the results depend on the processing

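The number of carriers called higher was 1 with all libraries. It was 0 with no filter on low counts, where no gene of 30342 was called, 2 by limma voom (SLC6A14 and SLC1A4), 4 with the column number as a replicate block, and between 1 and 4 with 1 library left out. The 1 carrier called by DESeq2 was SLC1A4. SLC6A14 got no adjusted p there. Its unadjusted p by DESeq2, 0.01, was above that of SLC1A2, 0.00274, which did not pass (adjusted p = 0.12, DESeq2). The block also called 1 carrier lower, SLC38A3, and 306 genes in all against 50. Leaving out 1 library gave 20 to 424 called genes. The count at an unadjusted p under 0.05 was 4 to 9 in the 13 alternatives. The median log2 fold change of the carriers was -0.0069 with library totals, 0.00096 with upper-quartile scaling and -0.024 to 0.012 with 1 library left out, so its sign changed with the setting. Of the further carriers 0 to 1 were called higher with 1 library left out, and of the sensing genes 0 to 1 higher and 0 to 1 lower. SLC6A14 stayed above 0 in all 13 alternatives (0.44 to 0.94), and both ends of this range came from fits with 1 library left out. It passed with each other scaling, the filter at a mean of 1 CPM, edgeR's legacy setting and limma voom. It also passed with the block, which called 306 genes. SLC6A14 did not pass with no filter on low counts, and DESeq2 gave it no adjusted p. The causes were not tested, except that fewer samples entered each fit with a library left out. In such a fit the group left with 1 library added no spread. With 2 libraries per group, small changes could be missed, and carriers under about 70 reads per library had wide intervals.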
